A study of Mus musculus with 6 samples.

Results

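The genes described here were 5 epithelial keratins, Krt7, Krt8, Krt18, Krt19 and Krt5, taken from the matrices by their gene symbols. They were 5 of the 53 keratin genes among the 33696 genes counted. Their transcripts were measured by single-cell RNA sequencing (10x Genomics, 3' ends) of whole kidneys from 6 male C57BL/6 mice aged 8 to 10 weeks. The 3 DOCA-salt mice had the left kidney removed, received a 50 mg pellet of deoxycorticosterone acetate (DOCA, a precursor of aldosterone that acts on the mineralocorticoid receptor) 1 week later, and drank 1% NaCl for 21 days. The 3 sham mice had a sham operation, normal drinking water and no pellet. All DOCA-salt mice thus differed from all sham mice in kidney mass, hormone and salt at once, and these cannot be told apart. The labels give 1 comparison, DOCA-salt against sham, and the DOCA-salt mouse is a standard model of salt-sensitive hypertension with renal injury.

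Keratins are the intermediate filament proteins of epithelial cells, and each filament is built from pairs of a type I and a type II keratin. Krt8 (type II) and Krt18 (type I) are the main pair of simple, single-layered epithelia. Krt7 (type II) and Krt19 (type I) join or replace them in ducts and in the urothelium, while Krt5 (type II) is the keratin of basal cells in stratified epithelia. In the healthy kidney, simple keratins are a feature of the collecting system more than of the proximal tubule, and injured tubular epithelium is known for raised keratin levels.

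The Krt8 and Krt18 genes are neighbours. In GRCm39 with the GENCODE annotation, Krt8 lay at chr15:101905133-101912917 on the minus strand and Krt18 at chr15:101936615-101940462 on the plus strand, so that they were transcribed away from each other from starts 23698 bases apart with 0 protein-coding genes between them. Krt7 (chr15:101308924-101328194, plus strand) and Krt5 (chr15:101615505-101621346, minus strand) lay in the same type II cluster, and Krt19 lay in the type I cluster at chr11:100031636-100039491 on the minus strand. The promoters of the Krt8 and Krt18 pair are shown because these genes changed together in the distal nephron. Both are RefSeq sequences on GRCm38.p6, written 5' to 3' on the gene's own strand, from 100 bases before to 20 bases after the annotated start, at chr15:102004323-102004442 for Krt8 and chr15:102028116-102028235 for Krt18.
Krt8: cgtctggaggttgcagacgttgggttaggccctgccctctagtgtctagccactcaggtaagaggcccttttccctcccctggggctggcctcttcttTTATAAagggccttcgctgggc
Krt18: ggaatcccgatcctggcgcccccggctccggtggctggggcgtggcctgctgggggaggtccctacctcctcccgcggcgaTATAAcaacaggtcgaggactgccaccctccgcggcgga
The capitals mark TATAA read on either strand, and in Krt8 the matches on the 2 strands overlap. Of 32851 RefSeq mouse promoters, 11.3% held TATAA in the same 120-base window. The table held promoters for 4 of the 5 genes.

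The deposited matrices held 76774 barcodes and 93172739 to 137819127 UMIs (unique molecular identifiers, each standing for 1 captured transcript) per mouse. After filtering, 55630 cells remained, 7701 to 9933 per mouse, with a median of 5094 to 8969 UMIs per deposited barcode. No pair of libraries shared more than 69 barcodes, 0.52% of the smaller library. Cells fell into 34 clusters, which were named from marker genes that included no keratin, so every type below means cells like that type. The library of DOCA-salt mouse 2 stood apart in 1 cluster of 627 cells, 97.77% of which were its own. That cluster had no marker-based name and entered no epithelial type, only the sums over all cells. Levels are given in counts-per-million (CPM), the UMIs of a gene scaled to the summed UMIs of all cells of a type in 1 mouse, and are written in the order sham 1, 2 and 3, then DOCA-salt 1, 2 and 3.

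Krt19 had the largest fitted change of the 5 genes in connecting tubule, principal cells and distal convoluted tubule. It was close to absent from sham connecting tubule, the segment before the collecting duct, and was abundant there in every DOCA-salt mouse. Its level in connecting tubule was 2.00, 0.631 and 1.61 CPM in sham mice against 77.7, 170.8 and 123.9 CPM in DOCA-salt mice. The lowest DOCA-salt mouse was thus far above the highest sham mouse. The means were 1.41 ± 0.706 and 124.1 ± 46.6 CPM (SD, n = 3 each), a log2 change of 6.24 (SE 0.44, edgeR quasi-likelihood test, Benjamini-Hochberg adjusted p = 3.3e-07). The sham value rested on 7 UMIs in all 3 mice together against 582 in DOCA-salt, and the ratio of summed levels was 87.6 (95% counting interval 42.3 to 219).

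Krt19 also rose in principal cells, the aldosterone-responsive cells of the collecting duct, where the sham level was higher than in connecting tubule. It was 10.4, 4.56 and 9.64 CPM in sham against 104.1, 215.6 and 216.4 CPM in DOCA-salt principal cells. The groups did not overlap, and the means were 8.19 ± 3.17 and 178.7 ± 64.6 CPM (log2 change 4.50, SE 0.34, edgeR adjusted p = 1.1e-05). In distal convoluted tubule, the thiazide-sensitive segment upstream, the values were 0, 0 and 1.35 CPM against 10.95, 30.6 and 10.5 CPM. Here 2 sham mice had no Krt19 UMI at all and every DOCA-salt mouse had some (log2 change 4.68, SE 0.87, adjusted p = 0.0033). This fitted change depends on the small sham count of 2 UMIs, and the ratio of summed levels was 32.6 with a counting interval of 8.86 to 272. The DOCA-salt side was uneven, with 143 UMIs, of which 54 lay in 1 cell. Of the 45 DOCA-salt cells with a Krt19 UMI, 27 held just 1. The counting interval does not cover this uneven spread over cells. Krt19 passed the filter on low counts in connecting and distal convoluted tubule through its DOCA-salt level, so its passing there is no separate evidence. In principal and intercalated cells not every sham mouse reached the filter's cutoff, so its passing there also drew on DOCA-salt mice.

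In intercalated cells, the acid-base cells of the collecting duct, Krt19 was 6.62, 4.04 and 1.90 CPM in sham and 18.9, 42.9 and 32.1 CPM in DOCA-salt mice. The rise passed the test (log2 change 2.86, SE 0.38, adjusted p = 0.00227), but it came from a minority of these cells. At a finer clustering, 349 of the 1927 intercalated cells fell into a cluster that carried both intercalated markers such as Slc26a4 and Insrr and connecting tubule markers such as Egfem1 and Trpv5. These mixed cells made up 14.9% to 20.9% of the type in the 6 mice. Their Krt19 level was 7.10, 3.23 and 0.707 CPM in sham and 47.6, 139.0 and 115.0 CPM in DOCA-salt mice. In the other intercalated cells it was 6.41, 4.31 and 2.41 CPM against 9.32, 4.86 and 7.05 CPM, and the groups overlapped. Without the mixed cells, a choice made after seeing the data, the log2 change of Krt19 was 0.74 (SE 0.37, adjusted p = 0.301). The mixed cluster had a median of 21285 UMIs per cell, and the part that 2 cells in 1 droplet took in it was not tested. In the whole intercalated type, parietal markers were 85.2 to 96.8 CPM in sham against 106 to 152 CPM in DOCA-salt mice, fibroblast markers 22.4 to 36.4 against 63.4 to 83.4, myeloid markers 24.3 to 30.2 against 54.2 to 76.5 and cycling markers 2.11 to 4.97 against 7.87 to 14.2 CPM, and their part was not tested.

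**Figure D1:**
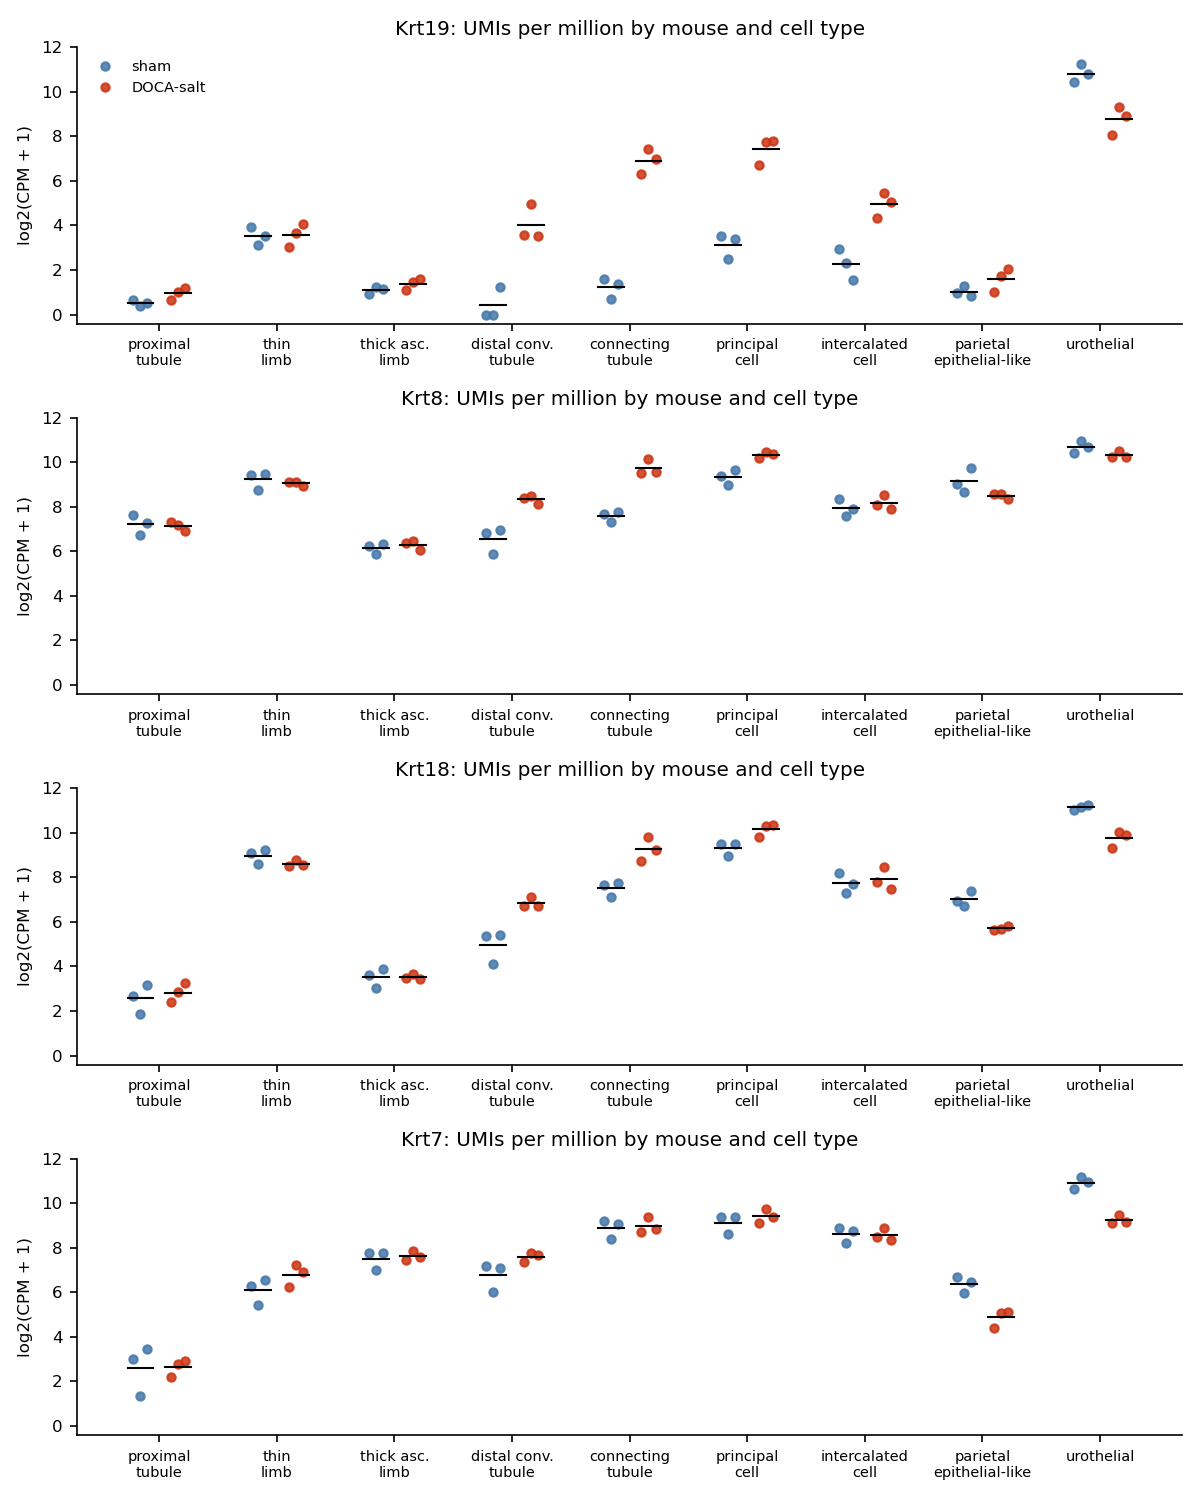
Levels of Krt19, Krt8, Krt18 and Krt7, on a log2(CPM + 1) axis, in each epithelial type, with 1 point per mouse, blue for sham and red for DOCA-salt, and a line at the mean. Krt19 lay between 0.631 and 2.00 CPM in sham and between 77.7 and 170.8 CPM in DOCA-salt connecting tubule, while Krt7 overlapped between the groups there.

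Segments upstream of these did not show such a rise past the test. In proximal tubule, which supplied 28917 of the cells, Krt19 was 0.559, 0.316 and 0.442 CPM in sham and 0.568, 1.02 and 1.27 CPM in DOCA-salt mice (log2 change 1.01, SE 0.35, adjusted p = 0.119). Every value there was within the range seen in myeloid cells, which do not make simple keratins as a rule and held 0 to 2.28 CPM. Endothelial cells held 0 to 0.912 CPM, and lymphoid cells held 0 Krt19 UMIs in all 6 mice. The thin limb of Henle's loop had 14.3, 7.81 and 10.5 CPM against 7.23, 11.5 and 15.5 CPM, with a log2 change of 0.02 (adjusted p = 0.991). Thick ascending limb held 0.908 to 1.37 CPM in sham and 1.14 to 2.04 CPM in DOCA-salt mice. The type named parietal epithelial, after the cells that line Bowman's capsule, held 0.762 to 1.45 and 1.00 to 3.07 CPM. In these last types Krt19 did not pass the filter within the type, and it was tested there only as a difference from proximal tubule (-0.49, adjusted p = 0.691, and 0.09, adjusted p = 0.953). Of the 2793 UMIs of the injury gene Havcr1 in DOCA-salt mice, 314 were in the proximal tubule type and 1865 in the parietal epithelial type. The proximal tubule values of Krt19, and those of the other keratins below, thus leave out most of the cells' Havcr1 signal.

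The share of cells with a Krt19 UMI was compared after thinning every cell to 1000 UMIs, because DOCA-salt cells were deeper. In connecting tubule the median depth was 9062 UMIs in sham and 12710 in DOCA-salt cells. The thinned share was 0.143 ± 0.0760% in sham and 7.88 ± 2.50% in DOCA-salt connecting tubule (before thinning, 1.15% and 34.5%), and 0.773 ± 0.324% and 11.04 ± 4.47% in principal cells (before thinning, 6.84% and 45.2%). Both had an exact 2-sided permutation p of 0.1, the smallest that 3 mice against 3 can give. The share in endothelial cells, taken as background, was 0.0870% and 0.0899%. Within connecting tubule, 121 of 352 DOCA-salt cells held a Krt19 UMI against 6 of 562 sham cells, with up to 40 Krt19 UMIs in 1 cell. Krt19 was unevenly spread over the cells of this segment. In proximal tubule 103 of 13391 DOCA-salt cells held one, and 101 of these held just 1 UMI.

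Krt8, the type II partner of Krt18, rose in connecting tubule, principal cells and distal convoluted tubule. In connecting tubule it was 204, 158 and 218 CPM in sham and 733, 1123 and 752 CPM in DOCA-salt mice. The groups were well separated, with means of 193 ± 31.5 and 869 ± 220 CPM (log2 change 2.02, SE 0.21, adjusted p = 9.3e-06). In principal cells it was 671, 505 and 795 CPM against 1146, 1416 and 1319 CPM (log2 change 1.02, SE 0.19, adjusted p = 0.00511). Distal convoluted tubule had 113, 57.8 and 122 CPM in sham and 337, 351 and 275 CPM in DOCA-salt mice (log2 change 1.53, SE 0.22, adjusted p = 4.2e-04). In all 3 segments every DOCA-salt mouse exceeded every sham mouse.

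In the other tubular types the Krt8 groups overlapped. Proximal tubule had 195, 105 and 155 CPM in sham and 159, 145 and 118 CPM in DOCA-salt mice (log2 change -0.17, adjusted p = 0.664). The log2 change was -0.20 in thin limb (adjusted p = 0.795), 0.12 in thick ascending limb (adjusted p = 0.832) and 0.22 in intercalated cells (adjusted p = 0.594). In the intercalated cells outside the mixed cluster, Krt8 was 342, 184 and 243 CPM in sham and 161, 159.6 and 131 CPM in DOCA-salt mice. There the DOCA-salt values lay below every sham value, the opposite direction. That change did not pass the test within the type, but as a difference from proximal tubule it did. Lymphoid cells, which do not make Krt8 as a rule, held 10.7 to 65.9 CPM, and endothelial cells 10.98 to 16.3 CPM. The proximal tubule level lay above all of these.

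Krt18, the type I partner of Krt8, rose in these segments too. Its level in connecting tubule was 202, 138 and 216 CPM in sham and 428, 904 and 598 CPM in DOCA-salt mice (log2 change 1.65, SE 0.26, adjusted p = 3.7e-04). Principal cells had 708, 490 and 708 CPM against 883, 1257 and 1302 CPM (log2 change 0.90, SE 0.20, adjusted p = 0.0148). Without DOCA-salt mouse 3 this rise had an adjusted p of 0.0899. Distal convoluted tubule had 39.8, 16.0 and 41.1 CPM against 104, 136 and 102 CPM (log2 change 1.61, SE 0.25, adjusted p = 6.6e-04). As with Krt8, the groups did not overlap in any of these 3 segments. Intercalated cells had 294, 156 and 209 CPM against 222, 347 and 178 CPM (log2 change 0.20, adjusted p = 0.719), and proximal tubule 2.65 to 7.96 against 4.25 to 8.41 CPM (log2 change 0.16, adjusted p = 0.827). The groups overlapped in both, and likewise in thick ascending limb (log2 change -0.08, adjusted p = 0.945). In thin limb the log2 change was -0.37 (adjusted p = 0.514).

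Krt7, the ductal type II keratin, was present throughout the distal nephron and did not pass the test in any tubular type. Connecting tubule had 585, 332 and 534 CPM in sham and 419, 669 and 461 CPM in DOCA-salt mice (log2 change -0.06, adjusted p = 0.904). Principal cells had 666, 389 and 663 CPM against 551, 850 and 656 CPM (log2 change 0.30, adjusted p = 0.473). The groups overlapped in both. In intercalated cells the values were 467, 295 and 435 CPM against 353, 470 and 322 CPM (log2 change -0.04, adjusted p = 0.930), and in thick ascending limb 219, 127 and 213 CPM against 173, 227 and 190 CPM (log2 change 0.06, adjusted p = 0.953). Distal convoluted tubule came nearest to a difference, with 145, 63.9 and 136 CPM against 162, 214 and 205 CPM (log2 change 0.57, SE 0.23, adjusted p = 0.175). Thin limb had 76.6, 42.6 and 93.7 CPM against 73.4, 149 and 118 CPM (log2 change 0.69, SE 0.30, adjusted p = 0.452). In proximal tubule Krt7 stayed between 1.58 and 10.0 CPM in all 6 mice (log2 change -0.29, adjusted p = 0.773). Sham mouse 2 was the lowest sham mouse for Krt7 in every one of these types.

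Krt5, the basal-cell keratin, was nearly confined to the urothelium, the lining of the renal pelvis. Of its 41 UMIs in sham mice, 36 (87.8%) were urothelial, as were 194 of 204 (95.1%) in DOCA-salt mice. The urothelial level was 141, 0 and 133 CPM in sham and 16.3, 197 and 111 CPM in DOCA-salt mice, and the groups overlapped. No Krt5 UMI was found in thin limb, distal convoluted tubule, connecting tubule, principal or intercalated cells in any mouse, so at this depth it was not detectable there. Over all cells the log2 change of Krt5 was 1.89 (SE 0.89, adjusted p = 0.188).

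Counted by type without Krt19, whose place among the tested genes of the distal types could depend on its DOCA-salt level, Krt8 and Krt18 were higher in DOCA-salt distal convoluted tubule, 2 of the 3 other keratins tested, against 4.25% of all genes called higher and 2.77% called lower. Krt8 and Krt18 were also the 2 of 3 higher in connecting tubule (all genes, 10.8% higher and 10.6% lower) and in principal cells (4.60% higher and 3.72% lower). Intercalated cells had 0 of these 3 called (all genes, 3.42% higher and 2.78% lower). None of the 4 tested in proximal tubule and thin limb, nor of the 3 tested in thick ascending limb, were called, where 7.02%, 0.546% and 1.49% of all genes were called in either direction.

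**Figure D2:**
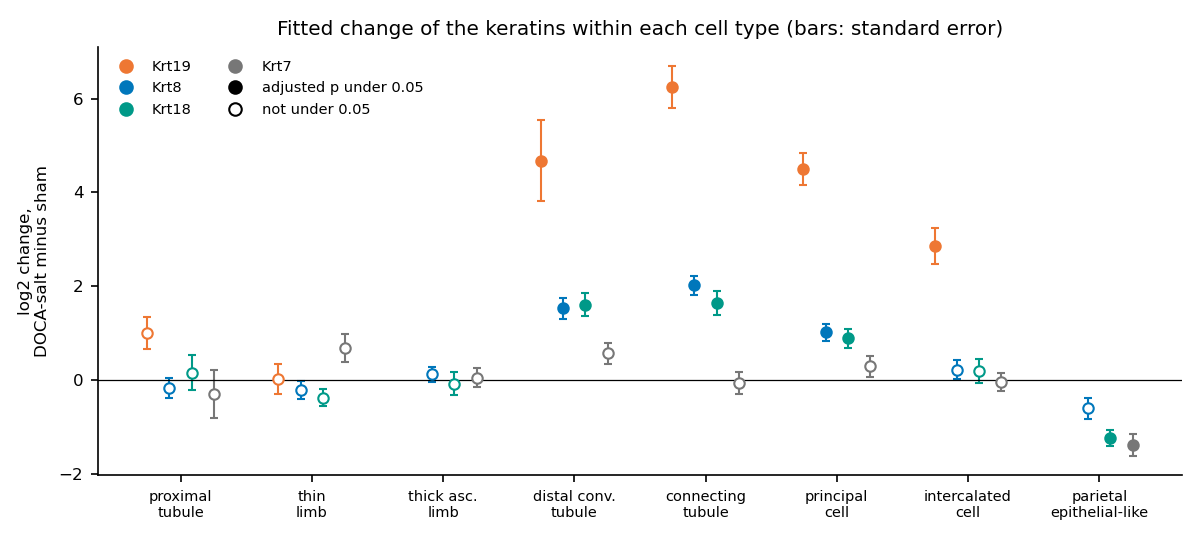
Log2 change of each keratin, DOCA-salt minus sham, in each epithelial type, with bars of 1 standard error and filled symbols for changes past the adjusted threshold of 0.05. Krt19, Krt8 and Krt18 lie above 0 in connecting tubule (6.24, 2.02 and 1.65), while Krt7 and Krt18 lie below 0 in the type named parietal epithelial (-1.37 and -1.23).

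Whether the changes differed between segments was tested as the change in each type minus the change in proximal tubule, with the mouse as a block. In connecting tubule the difference was 5.27 for Krt19 (SE 0.50, adjusted p = 1.1e-10), 2.14 for Krt8 (SE 0.16, adjusted p = 4.1e-13) and 1.40 for Krt18 (SE 0.20, adjusted p = 1.3e-06) on the log2 scale. Krt8 and Krt18 were 2 of the 3 keratins other than Krt19, against 7.83% of all genes. In principal cells Krt19, Krt8 and Krt18 differed too (all genes, 4.40%), with Krt18 at a difference of 0.70 (adjusted p = 0.0270). In distal convoluted tubule Krt19 and the 3 others differed, Krt7 included (difference 0.88, SE 0.20, adjusted p = 0.00463), against 4.79% of all genes. In intercalated cells Krt19 differed (difference 1.88, adjusted p = 0.00753; all genes, 3.32%), and without the mixed cells its difference was -0.22 (adjusted p = 0.866). In thin limb Krt7 differed narrowly (difference 0.83, adjusted p = 0.0494; all genes, 1.87%). This last call was lost without any 1 of sham mice 1 and 3 and DOCA-salt mice 1 and 2, as was that of Krt18 in principal cells. The call of Krt19 in distal convoluted tubule was lost without sham mouse 1 or DOCA-salt mouse 2, and that of Krt7 without sham mouse 3. None of the 4 differed in thick ascending limb, where 4.12% of all genes did in either direction.

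The type named parietal epithelial went the other way, but its sham and DOCA-salt cells differed in makeup, as given below. Krt18 was lower there, at 122, 103 and 168 CPM in sham against 48.9, 50.0 and 55.2 CPM in DOCA-salt mice (log2 change -1.23, SE 0.18, adjusted p = 3.8e-04). Krt7 was 101, 61.5 and 86.8 CPM against 20.3, 32.9 and 34.1 CPM (log2 change -1.37, SE 0.23, adjusted p = 9.8e-04). The groups did not overlap for either gene. Krt8 had 513, 405 and 844 CPM against 383, 376 and 322 CPM, and its log2 change of -0.60 (SE 0.23) had an adjusted p of 0.0746. Thus 2 of 3 keratins were lower, in a type where 13.7% of all genes were lower and 13.4% higher. Both also differed from proximal tubule, Krt7 by -1.17 and Krt18 by -1.35, against 11.2% of all genes with a lower difference.

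The makeup of the parietal epithelial type moved with these values. It held 85, 114 and 128 sham cells and 222, 258 and 300 DOCA-salt cells, with median depths of 9342 and 19263 UMIs. The summed parietal markers were 1787 to 2427 CPM in sham and 961 to 980 CPM in DOCA-salt mice, and the summed podocyte markers were 421 to 622 against 104 to 112 CPM. Proximal tubule markers were 1362 to 2076 against 4376 to 4741 CPM, and for 9 of 10 every DOCA-salt mouse was above every sham mouse. The injury gene Havcr1 was 0 to 8.38 CPM in sham and 83.1 to 140.6 CPM in DOCA-salt mice. The comparison in this type is thus between cells of unlike makeup. At the finer clustering, a podocyte-like cluster led by Wt1 held 70, 88 and 85 sham and 54, 91 and 57 DOCA-salt cells, and the parietal epithelial cluster held 20, 31 and 54 against 252, 283 and 324 cells. With those clusters the log2 change of Krt8 in parietal epithelial cells was -1.52, the log2 change of Krt18 in parietal epithelial cells was -2.56 and the log2 change of Krt7 in parietal epithelial cells was -1.78, all past the threshold. When cells were named by a marker score for each cell instead of by cluster, Krt7 had a log2 change of 0.16 and Krt18 of -0.45, neither past the threshold. The part of this makeup in the lower keratin values was not tested otherwise.

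Urothelial cells were the type with the highest Krt19. They numbered 10, 1 and 7 in sham and 28, 32 and 21 in DOCA-salt mice, so that 2 sham mice fell below the minimum of 10 cells set for a test and no edgeR test is given. Krt19 was 1384, 2387 and 1744 CPM in sham and 263, 640 and 483 CPM in DOCA-salt cells. Krt18 was 2076, 2244 and 2448 CPM against 626, 1041 and 954 CPM, and Krt7 was 1610, 2292 and 1969 CPM against 546, 702 and 567 CPM. The sham values of these 3 genes all lay above the DOCA-salt values, with sham mouse 2 represented by 1 cell. Krt8 had 1365, 1958 and 1642 CPM against 1188, 1425 and 1191 CPM, and its groups overlapped. The makeup of the type moved with these values: the summed urothelial markers were 7017 to 16950 CPM in sham and 1257 to 3046 CPM in DOCA-salt mice, and the thick ascending limb markers 47.8 to 3458 against 4358 to 7311 CPM. Their part in the keratin values was not tested.

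The cells that supplied the kidney's keratin UMIs also differed between the groups. Urothelial cells gave 447 of the 793 Krt19 UMIs in sham mice (56.4%) but 23.8% in DOCA-salt mice, where 29.9% came from principal cells, 17.1% from connecting tubule, 13.5% from intercalated cells and 4.19% from distal convoluted tubule. Proximal tubule gave 49.1% of Krt8 UMIs in sham and 32.2% in DOCA-salt mice, while the share from connecting tubule was 7.61% in DOCA-salt mice. Krt18 UMIs came mostly from thin limb (33.8%), principal cells (25.0%) and intercalated cells (20.7%) in sham, and from principal cells (29.6%), intercalated cells (17.1%), thin limb (14.9%) and connecting tubule (13.9%) in DOCA-salt mice. In the sum of all cells, where fewer cells of a type and less RNA per cell cannot be told apart, Krt19 was 4.45, 1.77 and 4.16 CPM against 7.64, 16.9 and 13.6 CPM. Its log2 change of 1.74 (SE 0.38) had an adjusted p of 0.0170, which no longer passed without DOCA-salt mouse 3, and it was the 1 keratin of 5 called there (all genes, 17.2%). Over all tubular cells Krt19 was again the 1 of 4 called (log2 change 3.01, SE 0.34, adjusted p = 0.00244; all genes, 6.12%), and in tubular cells without foreign marker UMIs its log2 change was 1.56, no longer past the threshold. Krt8 (-0.02), Krt18 (0.06) and Krt7 (-0.16) had log2 changes over all cells near 0, with adjusted p from 0.731 to 0.964.

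In the DOCA-salt distal nephron, the cells that held Krt19 also held more Krt8 and Krt18. In DOCA-salt connecting tubule, Krt8 was at 1413 CPM in the cells with a Krt19 UMI and 347 CPM in the others, and Krt18 at 1092 against 195 CPM. A Krt8 UMI was found in 95.04% and 62.3% of these cells. The cells with Krt19 were deeper too, at a median of 16710 against 10600 UMIs. Krt7, which was not called in this type, was at 687 against 358 CPM. In principal cells, 201 of 444 DOCA-salt cells held Krt19 (47 of 695 in sham), with Krt8 at 1566 against 882 CPM and Krt7 at 811 against 514 CPM. In distal convoluted tubule 45 of 879 DOCA-salt cells did (2 of 720 in sham), with up to 54 Krt19 UMIs in 1 cell, Krt8 at 1179 against 238 CPM and Krt7 at 595 against 153 CPM. In DOCA-salt proximal tubule the cells with Krt19 compared with the others had Krt18 at 5.394 against 6.006 CPM, Krt8 at 157 against 143 CPM and Krt7 at 8.48 against 5.14 CPM. The direction was not limited to DOCA-salt cells. In sham principal cells, those with Krt19 had Krt8 at 947 against 621 CPM and Krt18 at 826 against 612 CPM. Intercalated cells with Krt19 had Krt8 at 485 against 249 CPM in sham and 714 against 174 CPM in DOCA-salt mice. These are descriptions over cells of the same libraries, without a test.

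Markers of other cell types moved with part of these results. In distal convoluted tubule, cells were split by whether they held any UMI of the principal, urothelial or parietal marker genes. Among cells with such a UMI, Krt8 was 119, 59.6 and 117 CPM in sham and 413, 424 and 365 CPM in DOCA-salt mice. Among cells without one it was 104, 56.3 and 128 CPM against 199, 158 and 132 CPM, so the groups still did not overlap but lay closer. Krt18 in the cells without such a UMI was 41.5, 18.01 and 40.6 CPM against 48.2, 30.4 and 36.6 CPM, and the groups overlapped. Tested in those cells alone, Krt8 had a log2 change of 0.71 (adjusted p = 0.209) and Krt18 of 0.15 (adjusted p = 0.913), and Krt19, at 0, 0 and 0 against 1.1, 15.2 and 4.1 CPM, did not pass the filter. The cells without such a UMI were shallower, with median depths of 1781 to 4805 UMIs in sham and 2968 to 7127 in DOCA-salt mice. In the distal convoluted type as a whole the summed principal markers were 97.1 to 206 CPM in sham and 82.6 to 88.4 in DOCA-salt mice, the urothelial markers 1.23 to 2.70 against 3.65 to 6.06 CPM and the parietal markers 36.3 to 47.9 against 50.7 to 74.8 CPM. Its own markers were 8938 to 10730 against 6939 to 7619 CPM and connecting tubule markers 8091 to 13600 against 4936 to 6802 CPM. Fibroblast markers were 0 to 1.35 against 8.92 to 16.7 CPM, cycling markers 1.23 to 2.70 against 18.2 to 44.2 CPM and myeloid markers 9.83 to 28.3 against 45.0 to 53.2 CPM. The part of these lists in the keratin changes was not tested beyond the split.

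**Figure D3:**
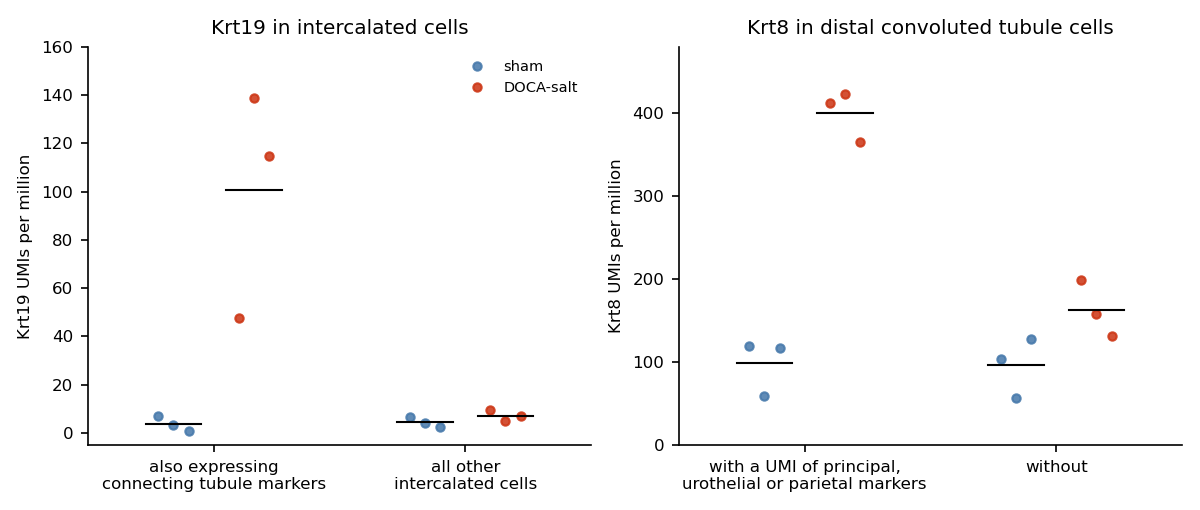
Levels (CPM, linear axes) of Krt19 in intercalated cells split into mixed and other cells (left) and of Krt8 in distal convoluted tubule cells split by the presence of a principal, urothelial or parietal marker UMI (right), with 1 point per mouse and a line at the mean. Krt19 in intercalated cells separates the groups in the mixed cells (0.707 to 7.10 against 47.6 to 139.0 CPM) and overlaps in the others (2.41 to 6.41 against 4.86 to 9.32 CPM).

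The same restriction was not tested in connecting tubule, where 5, 5 and 13 sham and 10, 9 and 14 DOCA-salt cells lacked such a UMI, under the minimum of 10 cells in 3 mice. The summed connecting tubule markers of that type were 42550 to 59500 CPM in sham and 32420 to 37650 CPM in DOCA-salt mice. Principal cell markers summed to 4846 to 7108 against 1324 to 1762 CPM, and for 6 of 6 every DOCA-salt mouse was below every sham mouse. Urothelial markers were 3.15 to 5.36 against 1.89 to 6.63 CPM, with Upk1b at 0. Myeloid markers were 10.1 to 15.6 against 82.6 to 133 CPM and fibroblast markers 0.536 to 1.34 against 12.6 to 14.4 CPM. Parietal markers were 145 to 147 against 202 to 315 CPM, distal convoluted markers 1540 to 1765 against 2189 to 2430 CPM, cycling markers 1.26 to 7.34 against 16.0 to 42.1 CPM and podocyte markers 1.26 to 2.68 against 6.56 to 14.4 CPM. Smooth muscle or pericyte markers were 11.4 to 23.1 against 33.2 to 44.4 CPM, proximal tubule markers 606 to 1033 against 383 to 504 CPM and mesothelial markers 3.15 to 6.01 against 0.946 to 2.19 CPM. Of the lists in this paragraph, the urothelial one alone overlapped between groups. Their part in the keratin changes was not tested.

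In principal cells marker lists also moved beside the keratin rises. Their own markers summed to 18860 to 20420 CPM in sham and 15590 to 17440 CPM in DOCA-salt mice, and connecting tubule markers to 1031 to 1331 against 1631 to 2493 CPM. Parietal markers were 273 to 334 against 380 to 413 CPM, podocyte markers 5.07 to 13.5 against 39.7 to 49.0 CPM and myeloid markers 8.66 to 13.2 against 48.6 to 102 CPM. Fibroblast markers were 0 to 2.25 against 7.52 to 34.5 CPM, and distal convoluted markers 181 to 245 against 102 to 171 CPM. In the principal cells without urothelial or parietal marker UMIs, Krt8 (log2 change 0.84) and Krt18 (0.99) no longer passed the test, over 3230 genes tested instead of 10595. In the whole type these changes were 1.02 and 0.90. Such cells numbered 38, 43 and 70 in sham and 13, 23 and 46 in DOCA-salt mice, with median depths of 4040 to 6911 and 1387 to 2063 UMIs. Loss of counts and absence of these markers thus cannot be told apart in the lost calls. Krt19 in those cells was 4.95, 3.70 and 8.77 CPM in sham, on 1, 1 and 3 UMIs, against 60.0, 105.6 and 154.7 CPM in DOCA-salt mice, on 3, 9 and 24 UMIs. The part of the other lists was not tested.

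The proportion of type I to type II keratin UMIs was higher in DOCA-salt mice in connecting tubule, principal cells and distal convoluted tubule. The ratio of type I UMIs (Krt18 and Krt19) to type II UMIs (Krt7 and Krt8) in connecting tubule was 0.259, 0.284 and 0.290 in sham and 0.439, 0.600 and 0.595 in DOCA-salt mice. The groups did not overlap, with means of 0.277 ± 0.0163 and 0.545 ± 0.0915 (exact 2-sided permutation p = 0.1, the smallest possible). The ratio of Krt18 to Krt8 alone went the other way there, at 0.99, 0.876 and 0.993 in sham and 0.584, 0.806 and 0.795 in DOCA-salt mice (exact permutation p = 0.1), again without overlap. The mean ratio of type I to type II UMIs went from 0.527 to 0.667 in principal cells and from 0.150 to 0.254 in distal convoluted tubule. In the opposite direction, it went from 0.771 to 0.625 in thin limb and from 0.201 to 0.139 in parietal epithelial cells. Each of these 4 comparisons also had the exact permutation p of 0.1. In urothelial cells the mean ratio was 1.14 in sham, where 1 mouse gave a single cell, and 0.707 in DOCA-salt mice, with an exact permutation p of 0.1 that rests in part on that single cell. Intercalated cells (0.340 and 0.410, exact p = 0.2), thick ascending limb (0.0465 and 0.0444, exact p = 0.7) and proximal tubule (0.036 and 0.0517, exact p = 0.5) overlapped between groups.

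**Figure D4:**
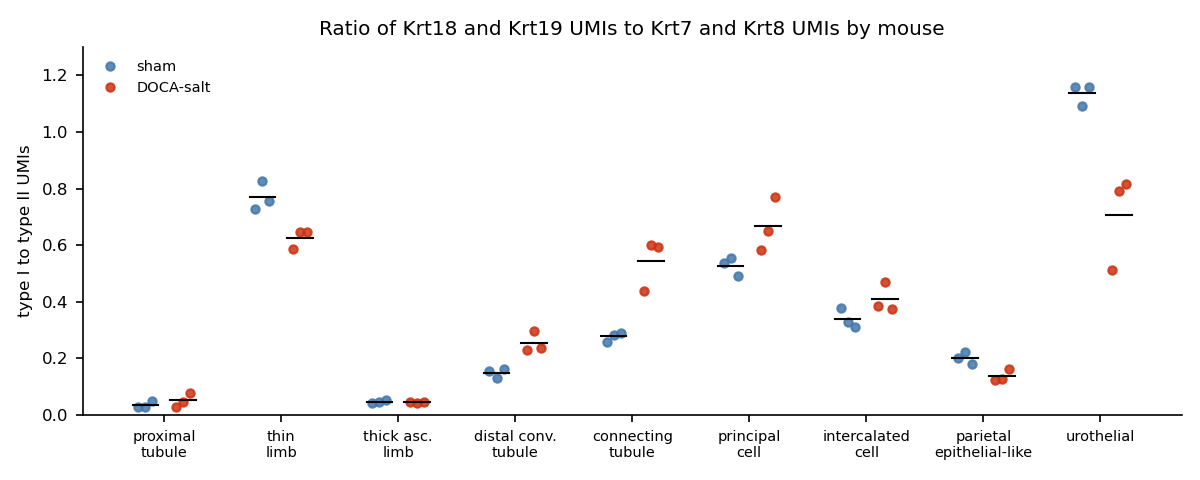
Ratio of Krt18 and Krt19 UMIs to Krt7 and Krt8 UMIs in each epithelial type, with 1 point per mouse, blue for sham and red for DOCA-salt, and a line at the mean. In connecting tubule the 3 sham mice lie between 0.259 and 0.290 and the 3 DOCA-salt mice between 0.439 and 0.600.

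Genes that anchor keratin filaments or make desmosomes were counted from a list of 15. Of 10 tested in distal convoluted tubule, 3 were higher and 0 lower, namely the filament linkers Plec (log2 change 1.86, adjusted p = 4.3e-04) and Dsp (1.15, adjusted p = 0.00302) and the junction protein Jup (0.80, adjusted p = 0.0165), where 4.25% of all genes were higher. In connecting tubule 2 of 13 were higher, the desmosomal genes Dsg2 (0.65, adjusted p = 0.0145) and Pkp4 (0.50, adjusted p = 0.0237), and 1 was lower, the linker Dst (-1.16, adjusted p = 3.9e-05), shares close to the 10.8% and 10.6% of all genes. In principal cells Plec (0.96) and Pkp4 (0.58) were higher and Dst (-0.84) lower among 14 tested (all genes, 4.60% and 3.72%). In the type named parietal epithelial, where Krt7 and Krt18 were lower and the makeup differed, 4 of 14 were lower, Dsp (-1.63), Ppl (-1.16), Tchp (-0.91) and Dst (-0.86), and 0 higher (all genes, 13.7% lower). The list's median log2 change was 0.54 in distal convoluted tubule, 0.50 in connecting tubule and 0.00 in principal cells, where the median over all genes tested lay between -0.02 and 0.00.

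Of 8 epithelial transcription factors, few moved in 1 direction across the segments. Elf3 was higher in distal convoluted tubule (log2 change 1.01) and principal cells (0.71), and Klf5 in connecting tubule (1.15). Ehf was higher in distal convoluted tubule (1.53) but lower in connecting tubule (-0.99) and principal cells (-0.69), and Tfap2b was lower in the last pair of types (-1.05 and -0.90) and in intercalated cells (-0.61). In the type named parietal epithelial, Elf3 (0.71) was higher and Ehf (-1.41) and Klf5 (-0.60) lower, all 3 that were tested. There 13.4% of all genes were higher and 13.7% lower, and the makeup of the cells differed between the groups. In all, 2 of 5 tested were higher in distal convoluted tubule (all genes, 4.25%), 1 of 6 higher and 2 lower in connecting tubule (10.8% and 10.6%), and 1 of 8 higher and 2 lower in principal cells (4.60% and 3.72%). In intercalated cells 1 of 7 was lower (all genes, 2.78%). Ehf in distal convoluted tubule and Klf5 in connecting tubule passed the filter on low counts with the help of their DOCA-salt levels.

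Of 8 tubular injury genes, 6 of 7 tested were higher in connecting tubule (all genes, 10.8%), among them Lcn2, which encodes a secreted injury marker (log2 change 6.62), the repair transcription factor Sox9 (5.42) and the adhesion molecule Vcam1 (4.46). In principal cells 4 of 7 were higher, led by Spp1 (3.41), and in distal convoluted tubule 4 of 6, led by Lcn2 (6.69), against 4.60% and 4.25% of all genes. Sham connecting tubule held at most 3.34 CPM of Lcn2 and 2.14 CPM of Sox9 and Vcam1, and sham distal convoluted tubule at most 1.77 CPM of Lcn2. These genes passed the filter on low counts there through their DOCA-salt levels. Their place in these counts is thus no separate evidence. Proximal tubule had 6 of 8 higher, with a list median of 2.22, while none of its 4 tested keratins were called (all genes, 7.02% in either direction). Havcr1 and Sox9 passed the filter there with the help of their DOCA-salt levels. Of 2793 Havcr1 UMIs in DOCA-salt mice, 314 were in this type and 1865 in the parietal epithelial type, whose DOCA-salt cells carried raised proximal tubule markers. Mean DOCA-salt Krt18 was 6.28 CPM in proximal tubule and 51.4 CPM in the parietal epithelial type. In the type named parietal epithelial, where Krt7 and Krt18 were lower and the makeup differed, 5 of 8 were higher, Havcr1, Vcam1, Spp1, Lcn2 and Prom1, and Clu and Cd24a were lower (all genes, 13.4% and 13.7%). Intercalated cells had 5 of 7 higher (all genes, 3.42%). Of these, Sox9 and Vcam1, at most 1.66 and 0.662 CPM in sham mice, passed the filter through their DOCA-salt levels. Sox9 in principal cells, Lcn2 in proximal tubule, and Havcr1 and Lcn2 in the parietal epithelial type also drew on DOCA-salt mice to pass it. The list medians were 1.02, 1.53 and 1.41 in connecting tubule, principal cells and distal convoluted tubule.

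Of the other 48 keratin genes, 1 to 4 passed the filter in each epithelial type, and 1 was called. This was 1 of 3 tested in principal cells, where 3.72% of all genes were lower. Krt23 was lower in principal cells, at 60.8, 64.7 and 58.8 CPM in sham against 23.7, 42.6 and 37.3 CPM in DOCA-salt mice (log2 change -0.77, SE 0.20, adjusted p = 0.0323). Its groups did not overlap, and its direction was opposite to that of Krt8, Krt18 and Krt19 in the same cells. Krt80 in intercalated cells had 79.3, 104.6 and 85.5 CPM against 67.5, 57.2 and 66.6 CPM and was not called. Over all cells 8 were tested, and Krt20 was called higher and Krt23 lower (all genes, 17.2% in either direction). Krt20 was 0.354, 0.412 and 0.476 CPM there against 1.29, 1.16 and 1.63 CPM. Of its 354 UMIs in DOCA-salt mice, 240 were in the parietal epithelial type. Over all tubular cells Krt23 alone of 6 was called, lower (all genes, 6.12% in either direction).

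Over 52 sums of 1 epithelial type in 1 mouse, the genes most like each keratin were found by Pearson's r of log2(CPM + 1) among 11045 genes. These sums share mice and libraries, so r is a description. Krt19 was most like Fam3d (r = 0.862), Itpr3 (0.852) and Gm49890 (0.845), and Krt8 most like Wnt4 (0.913), Nlrp4e (0.905) and Ywhag (0.902). Krt18 was most like Lama5 (0.946), Ptbp3 (0.939) and Cldn4 (0.935), and Krt7 most like Slc44a2 (0.953), Clstn1 (0.944) and Lrrfip1 (0.942). Krt5 followed the urothelial genes Krt15 (0.991), Upk2 (0.984) and Capn13 (0.979). Urothelial sums came only from sham mouse 1 and the DOCA-salt mice, and Krt5 was nearly absent from all other sums. Its r values thus rest on presence in those few sums. With a pseudocount of 5 in place of 1, Ctnnd2 took the place of Fam3d for Krt19, Gsdmc2 took that of Capn13 for Krt5, and Cldn4 was no longer among the 3 genes most like Krt18. Between Krt8 and Krt18 themselves r was 0.879.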

How the data were processed

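Per the methods and labels, single-cell suspensions of whole kidney were run on the 10x Genomics platform, aligned to GRCm39 and counted with Cell Ranger 9.0.0 (the file headers name 8.0.1). The deposited values are raw UMI counts per gene and barcode, 1 matrix per mouse, before the authors' own filters in Seurat 4.0.0 and R 4.0.3. Whether counting used strand is not given in the sources used here, and Krt7, Krt8 and Krt5 overlap antisense genes.

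Barcodes were kept with at least 170 genes and 500 UMIs, at most 50% mitochondrial and 5% haemoglobin UMIs. The share removed as doublets by Scrublet score was set at 0.8% per 1000 cells (4931 cells), since its automatic threshold called only 639. Cells were clustered in scanpy 1.11.5 (2000 variable genes without keratins, 30 components, 15 neighbours, Leiden resolution 1) and clusters named from marker lists. Clusters stayed unnamed with under 3 detected markers, with more leading genes of another class than of their own, or with a median UMI count low against that of their own samples together with none of their markers among the 10 leading genes.

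Counts were summed per mouse and type (at least 10 cells) and tested with edgeR 4.0.16 (filterByExpr, TMM, quasi-likelihood), with adjusted p-values over all genes tested in a type and a threshold of 0.05. Differences from proximal tubule were fitted as an interaction with the mouse as a block. Fold changes are on the edgeR log2 scale. Shares and ratios were compared by exact 2-sided permutation tests, whose smallest p with 3 mice against 3 is 0.1. Intervals of UMI ratios (95%, exact) cover counting error only. Total depth was 93172739 to 137819127 UMIs per mouse, which left Krt19 with 7 UMIs in sham connecting tubule. Where nothing says that mice were handled separately, p-values measure the spread between these libraries. The numbers of sham and DOCA-salt mice do not pair them (correlation of deviations from -0.413 to -0.019 over 4 types). The scripts were tested on simulated data, where they recovered most but not all of the known changes. False calls were 5 of 164 calls in principal cells, under the nominal 5%. They were above it in proximal tubule (16 of 185), thick ascending limb (12 of 183), thin limb (11 of 177) and the parietal epithelial type (10 of 167). Connecting tubule, distal convoluted tubule and intercalated cells were not simulated.

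The 5 genes, the marker and gene lists and the naming rule (the members, all keratins, the listed linker, transcription factor and injury genes, and the 3 genes most like each member with a mean of at least 5 CPM) were chosen with earlier results of these data known. Alternatives were DESeq2 1.42.0 as a test, its size factors, library size alone, no low-count filter, leaving out each mouse, a replicate block, at most 20% mitochondrial UMIs, no doublet removal, Leiden resolution 2, cells named by marker z-score, cells without foreign markers, thinning to 2000 UMIs and a pseudocount of 5 for likeness. Removal of the mixed intercalated cells was added after seeing the data.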

Additional observations from a re-analysis of the deposited data

Results flagged for a closer look

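The change of a keratin differed from its change in proximal tubule, by the interaction test in edgeR, in 14 cases, given here as differences of log2 changes. In the direction of these calls, the share of all genes called ran from 1.87% in thin limb to 11.2% in parietal epithelial cells. In connecting tubule they were 5.27 for Krt19, 2.14 for Krt8 and 1.40 for Krt18. In principal cells they were 3.49 for Krt19 (adjusted p = 6.8e-07), 1.20 for Krt8 (adjusted p = 1.1e-04) and 0.70 for Krt18. In distal convoluted tubule they were 3.76 for Krt19 (adjusted p = 0.0111), 1.74 for Krt8 (adjusted p = 2.2e-09), 1.57 for Krt18 (adjusted p = 5.1e-05) and 0.88 for Krt7. The value was 1.88 for Krt19 in intercalated cells and 0.83 for Krt7 in thin limb. In parietal epithelial cells the values were -1.17 for Krt7 and -1.35 for Krt18, both below 0. Without the mixed intercalated cells the Krt19 difference there was -0.22.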

How the results depend on the processing

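The rises of Krt19, Krt8 and Krt18 in connecting tubule held under every alternative run there, which left out cells without foreign markers because too few remained. Of 216 comparisons of the 14 called changes with an alternative, 204 kept direction and call, 11 lost the call and 1 reversed, and of 204 comparisons of the 14 called differences from proximal tubule, 171 kept both, 30 lost the call and 3 reversed. The replicate block, with mouse numbers that do not pair the samples, left 0 keratins called over all cells (Krt19 log2 change 1.76, adjusted p = 0.0631) and changed no other call within types. In cells without foreign markers, 0 keratins were called over all tubular cells (Krt19 1.56), in distal convoluted tubule (Krt8 0.71, Krt18 0.15) and in intercalated cells. In principal cells 1 was called, which was neither Krt8 (0.84) nor Krt18 (0.99). The differences from proximal tubule then numbered 0 in thin limb, principal and intercalated cells and 1 in distal convoluted tubule. With cells named by marker z-score, 1 keratin was called in thick ascending limb. In parietal epithelial cells 1 was called, which was neither Krt7 (0.16) nor Krt18 (-0.45). The Krt7 change there minus that in proximal tubule was 0.29, and differences numbered 1 in thick ascending limb, 0 in intercalated and 1 in parietal epithelial cells. At Leiden resolution 2, intercalated cells had 0 called (Krt19 0.76), with differences from proximal tubule of -0.22 for Krt19 and -0.52 for Krt8, and 2 differed in thin limb. Without the mixed cells, chosen after seeing the data, they had 0 called (Krt19 0.74) and the same differences of -0.22 and -0.52. With no low-count filter, 1 keratin was called in thin limb, and 2 differed from proximal tubule in thin limb and 2 in intercalated cells. At most 20% mitochondrial UMIs gave 1 call in thick ascending limb and differences numbering 2, 1 and 2 in thin limb, thick ascending limb and intercalated cells. DESeq2 gave 0 differences in thin limb and 2 in distal convoluted tubule, and library size alone gave 0 in thin limb. The cause was not tested for any of these. The share of all genes called is not given for the alternatives here and below. Their counts thus describe only how far the calls depended on the setting.

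Leaving out 1 mouse at a time gave 0 to 1 keratins called over all cells (Krt19 1.42 to 2.00), Krt18 changes of 0.73 to 1.07 in principal cells, 0 to 1 differences in thin limb and 1 to 2 in intercalated cells. The call of Krt19 over all cells and that of Krt18 in principal cells were lost without DOCA-salt replicate 3 (1.71 and 0.79). Depth limits Krt19, whose sham levels rest on 2 to 64 UMIs in the distal types, and Krt5, which had 41 UMIs in all sham cells.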
